A study of Mus musculus with 8 samples.

Results

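The genes described here are the 16775 autosomal genes, of 20368 on chromosomes 1-19 and 21352 in all, over which the IgG control libraries of female mouse primordial germ cells at E12.5 and E13.5 held 20 or more allele-assigned reads together. IgG is an antibody with no chromatin target, so these reads map untargeted cleavage, and the level of a gene is its reads on both alleles in RPM, that is, for each 1000000 reads of chromosomes 1-19. At E12.5 the members took 99.6% of the autosomal reads, and at E13.5 they took 99.7%. The 3593 genes under the minimum were short, with a median length of 2.80 kb. Just outside the minimum, 95 genes had 19 reads (median length 3.02 kb), and just inside it 88 genes had 20 (median 3.92 kb).

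Both libraries came from B6 x Cast hybrid female embryos of genotype Xist KO/+:Oct4-eGFP+/-, that is, with 1 deleted copy of Xist, the RNA that silences an X chromosome, and with a green reporter driven by Oct4. Primordial germ cells, the embryonic precursors of eggs and sperm, were sorted by fluorescence, and the series pooled embryos of 1 sex, so a library is a pool and not an animal. The series used low-input CUT&RUN for H3K27me3, the histone mark of Polycomb repression, in females at E11.5 and E12.5, with IgG as control. The labels name a further replicate of H3K27me3 at each stage. The H3K27me3 values below come from 1 set of counts a stage, so they show no spread between replicates. The other IgG library came from E11.5 males of genotype Xist KO/Y:Oct4-eGFP+/- and is given beside the female pair. Each IgG group is 1 library, so no test between stages was possible, and stage, embryo pool and library cannot be told apart. Every interval below is an exact 95% interval of counting error alone. IgG reads do not measure transcripts, so the identity of the sorted cells could not be checked against expressed markers.

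In CUT&RUN an antibody is bound in permeable cells and a fusion of protein A with micrococcal nuclease cuts the DNA around it. With IgG the nuclease has no site to be held at, and the fragments that come free are the background against which a mark is read. Such background is known to follow the amount of DNA counted, and free nuclease is known to prefer accessible and A/T-rich DNA.

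The E12.5 library held 1515532 autosomal reads and the E13.5 library 5705401, a 3.76-fold difference, while the male E11.5 library held 1357583. A level of 3 reads, taken as the floor, was 1.98 RPM at E12.5 and 0.526 at E13.5. At E12.5, 17 members had 0 reads, and at E13.5 none did. X-linked genes, which are no members, had 31149 reads at E12.5, or 2.06 for each 100 autosomal reads, and 171170 at E13.5, or 3.0001. In the males they had 19952, or 1.47 for each 100, so the rate was 1.40 times the male one at E12.5 and 2.04 times at E13.5. Reads on the second allele, whose strain the sources used here do not give, made up 51.1% of autosomal reads at E12.5 and 51.3% at E13.5. Only reads that tell the alleles apart were counted, so a level also follows how many strain variants a gene holds. A stage ratio sets the same variants against each other.

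Untargeted reads gathered in long genes in both libraries. The level ranked with gene length with a Spearman rho of 0.870 across the 16775 genes at E12.5 and 0.941 at E13.5, a description over genes that share a library and for which variant number grows with length. The 100 genes with the highest level were all over 300 kb long in each library. They held 9.23% of autosomal reads at E12.5 and 11.1% at E13.5, and 68 of them were shared.

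Cntnap2, a neurexin-family adhesion gene of chromosome 6 counted over 2244.86 kb, had the highest level at E13.5. It held 2023 reads at E12.5 and 12867 at E13.5, or 1335 RPM (1277 to 1394) and 2255 (2216 to 2295). Its level in the male E11.5 library was 1889 RPM, between those of the females. Dlg2, a synaptic scaffold gene, had 1233 RPM at E12.5 and 2052 at E13.5. Macrod2, an ADP-ribose hydrolase gene, had 1248 and 2010, and Ptprd, a receptor phosphatase gene of synapses, had 1061 and 1884. In all 4 genes the E13.5 level was the higher, by 1.61- to 1.78-fold.

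The genes with the highest levels at E12.5 were different in part and tended the other way. Asic2, an acid-sensing channel gene, had 1563 RPM at E12.5 and 1378 at E13.5, a ratio of 0.882 (0.842 to 0.924). Camta1, a calmodulin-binding transcription activator gene, had 1560 and 1112, a ratio of 0.713 (0.680 to 0.747). Cdh13, a cadherin gene, had 1382 and 1204, and Sdk1, an adhesion gene, 1342 and 1200. Fhit and Wwox, large genes of common fragile sites, parted: Fhit had 1330 and 1797 RPM and Wwox 1308 and 1124. Fgfr2, a fibroblast growth factor receptor gene, stood first at E12.5 with 2063 RPM and had 1772 at E13.5. Its deposited length of 2960.9 kb is 28.4 times its RefSeq span, so this value covers much sequence beside the gene.

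Set per kb of length, a level shows how densely a gene was cut and how many variants it holds. Over the members the interquartile range was 0.752 to 1.67 RPM per kb at E12.5 and 0.881 to 1.27 at E13.5. The upper quartile was thus 2.23 times the lower at E12.5 and 1.44 times at E13.5. With the E13.5 reads thinned at random to the E12.5 depth the E13.5 figure was 1.53, and in the male library, shallower than either, it was 1.68. Among the 2283 members of 100 kb or more, where counts are high, the quartiles stood 1.95-fold apart at E12.5, 1.31-fold in the thinned E13.5 reads and 1.46-fold in the males. The E12.5 library was therefore the least even of the 3 at like depth.

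Mt1, the metallothionein gene that binds zinc and copper, had the highest level per kb in both female libraries among genes with 100 or more reads. It gave 11.7 RPM per kb at E12.5 and 11.3 at E13.5 over a deposited length of 1.25 kb, from 22 and 80 reads. Its stage ratio was 0.966 (0.596 to 1.63). Nearly all of these reads lay on the first allele, 21 of 22 at E12.5 and 76 of 80 at E13.5. The male IgG library gave 16.6 per kb. Whether reads at this locus were assigned rightly was not tested. In the H3K27me3 libraries Mt1 stood at 144 per kb at E11.5 and 106 at E12.5. Each level is relative to the autosomal reads of its own library, so these values do not compare amounts of cleavage. The other genes highest per kb at E12.5 included Opn4, the melanopsin gene, with 3.74 per kb, and Chga, the chromogranin A gene of secretory granules, also with 3.74. At E13.5 these had 1.71 and 1.66 per kb. The genes highest per kb at E13.5 included Gzma, the granzyme A gene, with 3.13 at E12.5 and 2.67 at E13.5. Vmn2r111, a vomeronasal receptor gene of a family with near-identical copies, had 1.12 and 2.08.

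Levels of the 2 stages were set against each other as log2((level at E13.5 + 1)/(level at E12.5 + 1)), with the pseudocount of 1 RPM. The median over the 16775 members was -0.12, the interquartile range was -0.52 to 0.31, and the range was -2.42 to 3.29. A ratio 2-fold or more above 1 was found in 624 genes (3.72%), and 2-fold or more below 1 in 942 (5.62%), together 9.34%. Scaling by trimmed means of M values moved the centre up by 0.12 and turned this split to 920 higher and 562 lower, so the direction of the whole set rests on the scaling. Values for groups are best read against the median of -0.12.

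Shallow genes supplied most of the 2-fold differences. Among 2736 genes with 20 to 49 reads, 9.87% were 2-fold higher and 13.1% lower. Among 3522 genes with 500 reads or more the shares were 1.05% and 0.625%. Of the 11110 genes with 100 reads or more, 208 (1.87%) were 2-fold higher at E13.5 and 320 (2.88%) lower, together 4.75%. Counting each allele alone, 286 genes (1.70%) were 2-fold higher on both alleles and 365 (2.18%) lower on both. The log2 ratios of the 2 alleles, which hold separate reads of the same libraries and are no replicates, ranked with rho 0.578 across all members and 0.696 across those with 100 reads or more.

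The stage ratio moved with gene length. Pooled over all autosomal genes, which the read minimum does not select, genes of 2-10 kb gave 1.15 RPM per kb at E12.5 and 0.881 at E13.5, a ratio of 0.765 (0.757 to 0.772). Genes over 300 kb gave 0.825 and 1.003, a ratio of 1.22 (1.21 to 1.22). Genes of 100-300 kb had the same level in both, with 1.04 and 1.03 per kb. The 529 genes over 300 kb took 24.8% of autosomal reads at E12.5 and 30.1% at E13.5. In the male E11.5 library that share was 28.2%, and the pooled levels were 0.990 per kb for 2-10 kb and 0.941 for over 300 kb. The male values lay between those of the female libraries in the shortest class and the longest, so the 3 libraries do not fall in the order of their stages. Over members the median log2 ratio was -0.32 for 2-10 kb, -0.24 for 10-30 kb, -0.01 for 30-100 kb, 0.08 for 100-300 kb and 0.33 for over 300 kb.

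How many genes lie nearby went with the ratio too. Gene density was counted, after the values had been seen, as the RefSeq protein-coding genes within 500 kb on either side, for the 16734 members that RefSeq (GRCm38.p6, the assembly behind mm10) names. In the quintile of genes with the fewest neighbours (0 to 8) the median log2 ratio was 0.20, and in the quintile with the most (31 to 72) it was -0.43. Between these quintiles the median level per kb went from 0.895 to 1.44 at E12.5 and from 1.06 to 1.07 at E13.5, with 0.999 to 1.18 in the males. E13.5 was thus nearly level across densities, whereas at E12.5 genes in dense neighbourhoods had the higher level per kb.

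Genes with many neighbours are also short, so the 2 properties were crossed. Within genes of 10-30 kb the median ratio was 0.10 in the sparsest quintile (677 genes) and -0.46 in the densest (1268 genes). Within genes of 30-100 kb it was 0.23 and -0.33. In the sparsest quintile, genes of 2-10 kb had a median of -0.06 and genes over 300 kb one of 0.38. In the densest quintile the medians were -0.42 for 2-10 kb, -0.46 for 10-30 kb, -0.33 for 30-100 kb and 0.00 for the 28 genes of 100-300 kb. The ratio thus differed with density at like length. It differed with length within the sparsest quintile, where density still ranges from 0 to 8 neighbours.

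**Figure D1:**
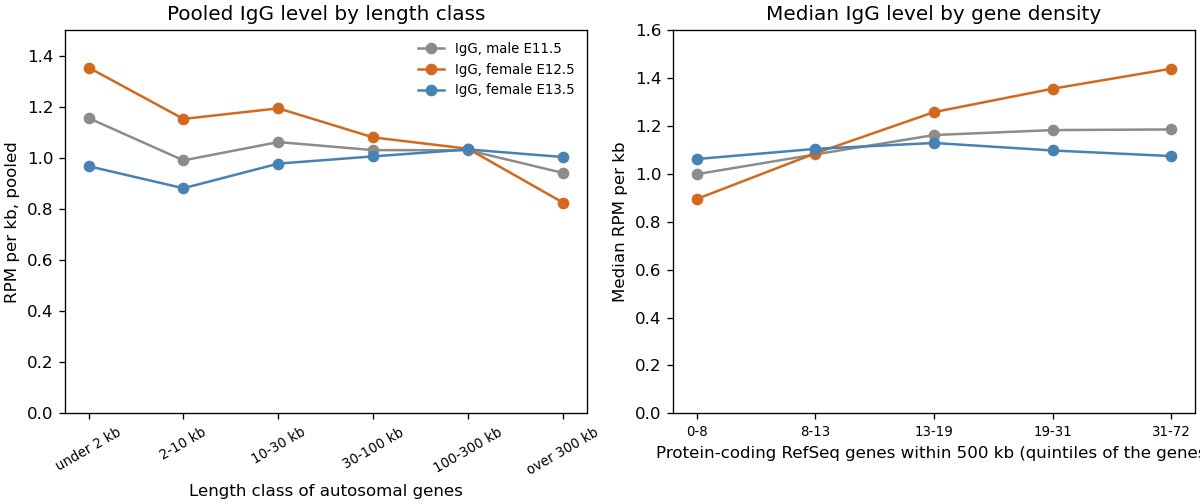
Level per kb in the 3 IgG libraries, 1 library each. Left: RPM per kb pooled over all autosomal genes of a length class. Right: median RPM per kb of the members, in quintiles by number of protein-coding RefSeq genes within 500 kb. The E12.5 line falls from 1.35 in the shortest class to 0.825 in the longest and climbs with density from 0.895 to 1.44, the E13.5 line is nearly flat on the right, and the male line lies between them at both ends of each panel.

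Chromosomes with more gene-dense members tended to have the lower ratio, with exceptions. Across the 19 autosomes the rho between pooled ratio and median density was -0.856, over chromosomes of the same 2 libraries. Chromosome 11 held 6.84% of autosomal reads at E12.5 and 6.10% at E13.5, a ratio of 0.891 (0.884 to 0.897), and its members had a median of 22 genes within 500 kb. Chromosome 17 had a ratio of 0.911 with a median of 21, and chromosome 7, the densest with 28, one of 0.915. Chromosome 3 held 4.35% and 5.06%, a ratio of 1.17 (1.16 to 1.18), with a median of 11 neighbours, and chromosome 1 had a ratio of 1.1098. The share of the male library lay between the female ones for 12 chromosomes, among them 11 (6.34%) and 3 (4.68%), and outside them for 7.

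At a finer scale the ratio was pooled in 466 windows of 5 Mb with 5 or more members and 1000 or more reads, a division also chosen after the values had been seen. The lowest window was at 120-125 Mb of chromosome 8, with a ratio of 0.592 (0.577 to 0.607), and 82 of its 83 members had a log2 ratio below 0. Next was 115-120 Mb of chromosome 11 at 0.604, where 101 of 105 members were below 0. In both windows nearly all members lay on the same side, and leaving out Gse1, the gene with the most reads in the chromosome 8 window, gave a ratio of 0.611.

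The highest window, at 65-70 Mb of chromosome 16, had a ratio of 1.97 (1.84 to 2.12), but 75.6% of its reads lay in Cadm2, a synaptic adhesion gene, and without it the ratio was 1.47. At 140-145 Mb of chromosome 1 the ratio was 1.88, and 1.71 without Kcnt2, a potassium channel gene. At 85-90 Mb of chromosome 2 it was 1.80 (1.52 to 2.14), and 24 of the 29 members there were olfactory receptor genes. The 10 lowest windows had a median density of 23.5 and the 10 highest one of 4. Across windows the rho between ratio and density was -0.635, over neighbouring windows of the same 2 libraries.

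**Figure D2:**
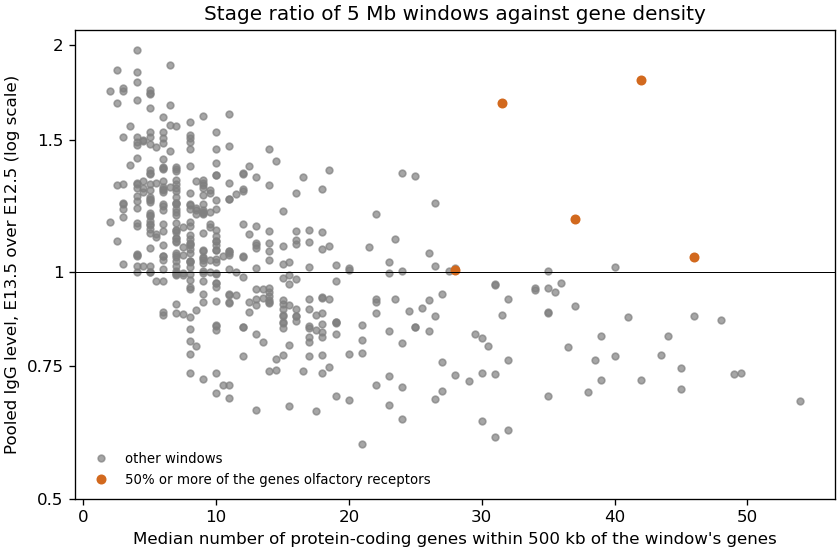
Pooled IgG level at E13.5 over E12.5 (log axis) of each of 466 windows of 5 Mb against the median number of protein-coding genes within 500 kb of the members in it. Ratios lie highest, up to 1.97, where neighbours are few. The 5 windows in which 50% or more of the members are olfactory receptor genes have many neighbours and ratios of 1.01 to 1.80.

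Chemosensory receptor families did not follow that order. Their members had a median of 34 (olfactory) and 18 (vomeronasal) genes within 500 kb, and yet the higher level at E13.5. The count of neighbours takes in other genes of the same family, and 18 lies in the middle quintile (13 to 19). Vomeronasal receptors detect pheromones, and 208 of their 343 autosomal genes were members. Their median log2 ratio was 0.80 beside -0.12 for all members, 201 were above 0, and 67 (32.2%, beside 3.72% of all members) were 2-fold higher and 0 lower. Pooled over all 343 genes, the level was 0.432 RPM per kb at E12.5, 0.753 at E13.5 and 0.661 in the males. Olfactory receptors, the odour receptors of the nose, had 699 members among 1110 autosomal genes and a median of 0.63. Of these, 197 (28.2%) were 2-fold higher and 2 (0.286%) lower. Their pooled level was 0.525 per kb at E12.5, 0.795 at E13.5 and 0.698 in the males. In both families every IgG library lay below the average of 1.01 per kb for all autosomal genes, and E12.5 lay lowest. Members of these families have near-identical copies, so reads of single genes are uncertain, and how reads that fit several copies were treated is not given in the sources used here. The passing genes of a family are those with 20 or more reads, which the deeper E13.5 library helps to reach, whereas the pooled levels have no such minimum.

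Vmn2r7 had 85 reads at E12.5 and 635 at E13.5, or 56.1 and 111 RPM, a ratio of 1.98 (1.58 to 2.52). Vmn2r74 had 3 reads and 95, a ratio of 8.41 with an interval of 2.79 to 41.5. Vmn1r188 was the lowest of its family with 50 reads or more, at a ratio of 0.764 (0.474 to 1.27), or -0.36 in log2. The deposited lengths of Vmn2r7, Olfr656, Olfr523 and Vmn1r188 are 5.52, 7.73, 5.81 and 12.4 times their RefSeq spans, so most of the length counted over lies outside those spans. Among olfactory receptors Olfr656 had 0 reads at E12.5 and 50 at E13.5, or 0 and 8.76 RPM. The floor of 3 reads at E12.5 is 1.98 RPM, which this E13.5 level exceeded. Olfr523 went the other way, with 19.1 and 9.29 RPM.

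Long neural and adhesion genes, a list of 49 genes of which all were members, had a median ratio of 0.61. Of these 44 were above 0, 3 (6.12%, beside 3.72% of all members) were 2-fold higher and 0 lower (beside 5.62%). Pooled, they stood at 0.679 per kb at E12.5, 0.958 at E13.5 and 0.861 in the males. Csmd3, a large gene of the complement-control protein family, had the highest ratio, with 496 RPM at E12.5 and 1120 at E13.5, or 2.26 (2.09 to 2.44). Wwox, of 913 kb, had the lowest, at 0.859 (0.817 to 0.904). Being long was thus not enough for a higher level at E13.5.

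Developmental regulators, the transcription factor and signal genes that Polycomb holds silent in many cells, had the opposite sign. Of 58 genes 48 were members, with a median of -0.45. None was 2-fold higher and 10 (20.8%, beside 5.62% of all members) were lower, and 42 were below 0. The listed members were short, with a median length of 8.22 kb, and 12.7% of all members of 2-10 kb were 2-fold lower. Their median of 6 neighbours falls in the sparsest quintile, where genes of 2-10 kb had a median log2 ratio of -0.06. This list, too, did not follow the order by density. Pooled over all 58 the level was 1.31 per kb at E12.5, 0.997 at E13.5 and 1.05 in the males, against 5.48 in H3K27me3 of E11.5 females. Pax5, a B cell and midbrain regulator, had 347 and 260 RPM, a ratio of 0.748 (0.677 to 0.828). Pax3, of the neural crest, had 45.5 and 67.0, the highest ratio of the list with 50 reads or more at 1.47. Shh, the hedgehog signal, had 23 and 36 reads, a ratio of 0.416 (0.240 to 0.735). Its alleles differed in sign, with log2 ratios of 0.50 on the first and -1.84 on the second. Hox genes, which pattern the body axis, had 15 of 39 genes as members and a median of -0.47. Of these, 0 were higher and 2 lower (13.3%, beside 5.62% of all members and 12.7% of those of 2-10 kb). Their median length was 7.99 kb. Their pooled level was low, at 0.604 per kb at E12.5 and 0.411 at E13.5.

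Genes of the germline did not share 1 direction. Germ cell genes had 29 of 33 as members, a median of -0.02, and 3 genes 2-fold higher and 3 lower (10.3% each, beside 3.72% and 5.62% of all members). Asz1, a gene of the piRNA pathway, had 11.9 and 28.7 RPM, a ratio of 2.42 (1.48 to 4.19). Nanos3, which keeps germ cells alive, had 25.1 and 10.9, a ratio of 0.433 (0.285 to 0.667), over a deposited length 4.07 times its RefSeq span. Meiotic entry genes, which female germ cells switch on around these stages, had 32 of 33 as members and a median of 0.28. None was 2-fold higher or lower and 21 were above 0. Mei4, needed for meiotic DNA breaks and 342 kb long, had 165 and 312 RPM, a ratio of 1.89 (1.66 to 2.17). Rec8, the meiotic cohesin gene of 7.36 kb, had 13.2 and 6.49, a ratio of 0.491 (0.278 to 0.894). Dazl, the germ cell RNA-binding protein gene, had 7 and 56 reads, a ratio of 2.13 with an interval of 0.966 to 5.53. Among genes with 50 reads or more, Asz1 and Dazl had the highest ratios of their lists, and Nanos3 and Rec8 the lowest. The ratios chose these genes, so their intervals are no support for a difference. Oocyte genes had 19 of 22 as members and a median of -0.28, with 0 higher and 1 (5.26%) lower.

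Genes that mark other cells of the gonad were read as loci only. Somatic gonad genes had 22 of 26 as members and a median of -0.31, with 0 higher and 1 (4.55%, beside 5.62% of all members) lower. Nr5a1, the steroidogenic regulator, had 54.1 RPM at E12.5 and 27.7 at E13.5, a ratio of 0.512 (0.390 to 0.677). Blood and endothelial genes had 20 of 25 as members and a median of -0.23, with 0 higher and 1 (5%) lower. There Ptprc, the CD45 gene of 113 kb, had 56.7 and 112 RPM, and Tie1, an endothelial receptor gene of 18.9 kb, had 50.1 and 23.8. Among genes with 50 reads or more, Ptprc had the highest and Tie1 the lowest ratio of this list. Nr5a1 had the lowest of the somatic gonad list, so the ratios chose these genes too. Erg and Runx1, transcription factor genes of 227 and 225 kb, had ratios of 0.865 (0.781 to 0.960) and 0.788 (0.709 to 0.877), so these long genes were lower at E13.5.

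Of the other lists, housekeeping genes had a median of -0.04 (36 of 41 members, 0 higher, 6 lower, or 16.7% beside 5.62% of all members). For the lists that follow, the shares 2-fold higher and lower stand beside 3.72% and 5.62% of all members. Chromatin and Polycomb enzyme genes had -0.11 (31 of 31, 2 or 6.45% higher, 1 or 3.23% lower). Suz12, a core Polycomb subunit, had the highest ratio of that list, with 13.9 and 34.9 RPM. Pcgf2, another subunit, had the lowest, with 19.8 and 8.59. Imprinted genes had -0.15 (28 of 37, 2 or 7.14% higher, 2 or 7.14% lower). Ube3a, the ubiquitin ligase of the Angelman locus and the highest of that list, had 15.2 and 47.1 RPM, a ratio of 3.11 (2.03 to 4.99). Ribosomal protein genes had -0.35 (55 of 78, 2 or 3.64% higher, 4 or 7.27% lower). Clustered protocadherin genes had -0.32 (24 of 38, 1 or 4.17% higher, 2 or 8.33% lower). Solute carrier genes had -0.22 (343 of 362, 5 or 1.46% higher, 22 or 6.41% lower). Serpin genes had -0.14 (53 of 60, 3 or 5.66% higher, 1 or 1.89% lower). Histone cluster genes had -0.09, with only 4 of 67 as members, 0 higher and 1 (25%) lower. Defensin genes had 0.31 (32 of 70, 5 or 15.6% higher, 1 or 3.1% lower). Cytochrome P450 genes had 0.07 (96 of 99, 1 or 1.04% higher, 6 or 6.25% lower). Zinc finger genes had 0.06 (335 of 379, 11 or 3.28% higher, 17 or 5.07% lower). Gene models named Gm had 0.16 (151 of 559, 15 or 9.93% higher, 3 or 1.99% lower). Those named Rik had -0.06 (295 of 430, 11 or 3.73% higher, 8 or 2.71% lower). None of 50 keratin-associated protein genes was a member. The symbol pattern for antigen receptor segments took in 9 members of 444, one of them Tradd, which is no such segment, with a median of 0.02 and none 2-fold different.

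**Figure D3:**
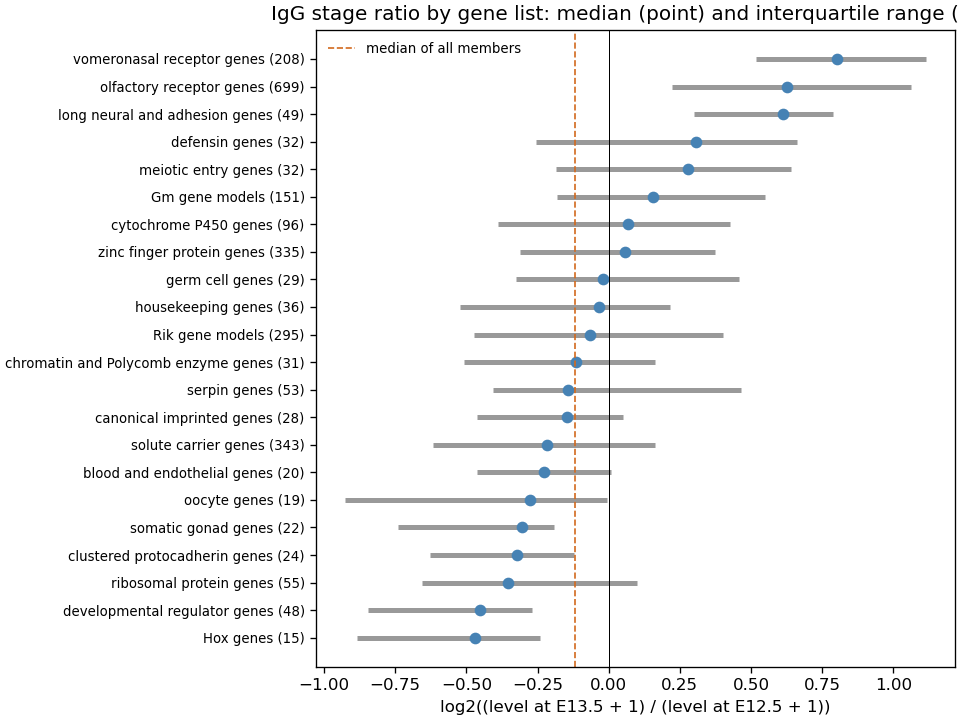
Median (point) and interquartile range (bar) of the log2 stage ratio for the 22 lists with 15 or more members, their number in brackets, 1 library a stage. The dashed line is the median of all members, -0.12. Medians run from -0.47 for Hox genes to 0.80 for vomeronasal receptor genes, and the interquartile ranges of the vomeronasal, olfactory and long neural lists lie wholly above 0.

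Single genes at the ends of the ratio were taken among those with 100 reads or more, 12 on each side. The ratios had chosen them and are given as a description. On the higher side stood Klrh1, a receptor gene of the natural killer cell lectin family, with 7 reads at E12.5 and 124 at E13.5, or 4.62 RPM (1.86 to 9.52) and 21.7 (18.1 to 25.9). Its ratio was 4.71, with an interval of 2.22 to 11.9. Alx1, a homeobox gene of the face, had 8 and 122 reads and a ratio of 4.05 (1.99 to 9.59). Tiparp, an ADP-ribosyltransferase gene, had 11 and 161 reads and a ratio of 3.89 (2.12 to 7.94). Col3a1, a fibrillar collagen gene, had 15 and 196 reads and a ratio of 3.47 (2.05 to 6.32). The 12 ratios ran from 3.23 to 4.71, and each E12.5 count was 21 reads or fewer, so their intervals are wide. In the male E11.5 library, which the choice did not use, these 4 genes stood at 9.58, 19.9, 19.9 and 25.8 RPM, above E12.5 in each case, although a choice by the ratio also favours genes whose E12.5 count fell low by counting error.

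The lower side held genes of 10.1 to 29.1 kb. Baiap3, a gene of vesicle traffic of 13.7 kb, had 75 reads at E12.5 and 83 at E13.5, or 49.5 RPM (38.9 to 62.0) and 14.5 (11.6 to 18.03). Its ratio was 0.294 (0.213 to 0.407), and its log2 ratio was -1.63 on the first allele and -1.77 on the second. Pgf, the placental growth factor gene, had 58 and 66 reads and a ratio of 0.302 (0.209 to 0.438). Ncln, the nicalin gene, had 57 and 70 reads and a ratio of 0.326 (0.227 to 0.471). Grin2c, an NMDA receptor subunit gene, had 76 and 104 reads and a ratio of 0.363 (0.268 to 0.495). Thop1, Ncln, Pias4 and Gna11 lie close together, between positions 81070083 and 81545162 of chromosome 10. The pooled ratio of that whole chromosome was 1.06. In the male library Baiap3 stood at 28.7 RPM and Pgf at 14.7, between the female values.

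**Figure D4:**
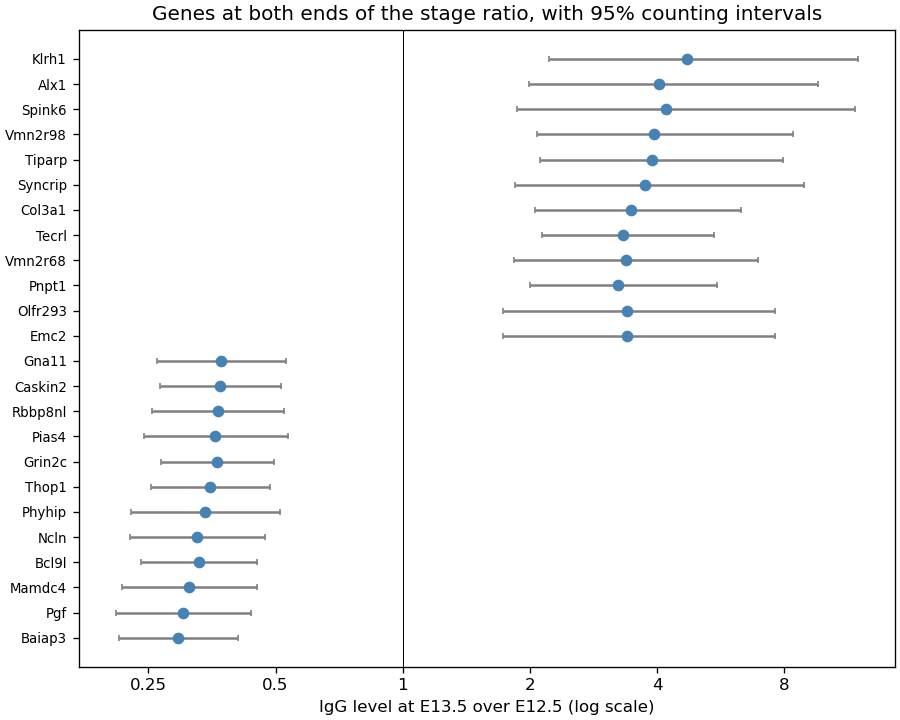
IgG level at E13.5 over E12.5 on a log axis, with exact 95% counting intervals, for the 24 genes at both ends of the ratio among those with 100 reads or more. Ratios run from 0.294 for Baiap3 to 4.71 for Klrh1, and intervals are wider on the higher side, where E12.5 counts are small. None of the 24 intervals reaches 1, but the ratios chose the genes, so this is no support for a difference.

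As examples, the 250 bases before a RefSeq start (GRCm38.p6) are printed for 3 genes near either end. They are given 5′ to 3′ on the gene's strand, with each CG in capitals. Higher at E12.5 were Baiap3 (window chr17:25256365-25256614, minus strand), Pgf (chr12:85177314-85177563, minus strand) and Mamdc4 (chr2:25571317-25571566, minus strand). Higher at E13.5 were Klrh1 (chr6:129784271-129784520, minus strand), Vmn2r98, a vomeronasal receptor gene (chr17:19053243-19053492, plus strand), and Tiparp (chr3:65528197-65528446, plus strand). The Pgf window lies inside the gene's RefSeq span and the other 5 outside theirs.
Baiap3: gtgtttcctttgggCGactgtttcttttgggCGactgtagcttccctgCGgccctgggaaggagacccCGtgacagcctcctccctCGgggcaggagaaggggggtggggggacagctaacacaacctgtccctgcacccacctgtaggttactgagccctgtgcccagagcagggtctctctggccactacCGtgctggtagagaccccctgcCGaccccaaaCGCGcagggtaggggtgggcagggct
Pgf: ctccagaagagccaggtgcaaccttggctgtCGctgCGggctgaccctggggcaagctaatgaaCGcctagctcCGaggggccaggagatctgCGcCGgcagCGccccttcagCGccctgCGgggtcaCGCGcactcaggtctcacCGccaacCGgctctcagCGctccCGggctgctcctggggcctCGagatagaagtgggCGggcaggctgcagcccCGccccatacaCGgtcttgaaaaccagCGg
Mamdc4: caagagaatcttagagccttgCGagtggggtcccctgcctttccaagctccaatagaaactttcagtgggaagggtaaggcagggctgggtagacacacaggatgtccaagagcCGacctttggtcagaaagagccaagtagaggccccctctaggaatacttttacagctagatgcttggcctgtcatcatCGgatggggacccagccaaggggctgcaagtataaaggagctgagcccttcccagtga
Klrh1: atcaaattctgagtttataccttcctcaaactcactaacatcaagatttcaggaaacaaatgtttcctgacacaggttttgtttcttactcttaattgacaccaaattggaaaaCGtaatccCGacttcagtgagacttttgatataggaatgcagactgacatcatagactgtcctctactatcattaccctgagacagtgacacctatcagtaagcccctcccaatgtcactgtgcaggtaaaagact
Vmn2r98: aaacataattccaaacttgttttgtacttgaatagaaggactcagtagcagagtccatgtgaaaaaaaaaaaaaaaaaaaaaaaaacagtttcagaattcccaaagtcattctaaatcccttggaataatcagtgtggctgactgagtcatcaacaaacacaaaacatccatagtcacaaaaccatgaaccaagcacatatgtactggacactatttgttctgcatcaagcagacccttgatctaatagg
Tiparp: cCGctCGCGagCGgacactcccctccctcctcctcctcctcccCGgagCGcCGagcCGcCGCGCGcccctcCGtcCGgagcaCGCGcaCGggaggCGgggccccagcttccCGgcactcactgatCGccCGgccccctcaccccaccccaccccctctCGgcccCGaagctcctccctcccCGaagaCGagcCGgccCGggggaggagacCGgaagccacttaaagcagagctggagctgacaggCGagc
The Baiap3 window holds 9 CG and 64.4% G and C, the Pgf window 20 CG and 68.4%, and the Mamdc4 window 3 CG and 53.6%. The Klrh1 window holds 2 CG and 39.2%, the Vmn2r98 window 0 CG and 34.8%, and the Tiparp window 28 CG and 75.2%. The windows with the most and the fewest CG were thus both on the E13.5 side. Over the 25748 RefSeq windows of this length the median was 6 CG and 52.4% G and C, and 92.0% held a CG at all. The pattern searched was CG, which reads alike on both strands. These 6 are examples and cannot show whether the ratio goes with base content over the members. A comparison of the ratio by promoter G and C or CG content is void, because windows were at hand for 79.1% of members, under the 80% needed.

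Read against the other libraries, level per kb across the 16775 members ranked with rho 0.610 between the 2 female IgG libraries. It was 0.734 between the male library and E12.5 and 0.681 between the male library and E13.5. With H3K27me3 of E12.5 females it was 0.534 for IgG at E12.5 and 0.453 for IgG at E13.5. All share gene length and variant number, and the deeper library has less counting noise. The male library, of another sex and stage, thus ranked closer to each female IgG library than these did to each other.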

How the data were processed

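CUT&RUN libraries with IgG were compared between female primordial germ cells at E12.5 and E13.5, 1 library each, grouped by the sample labels. The deposited tables have no header line. They were read as giving, per gene, its chromosome, a length, whole-number read counts on 2 alleles and the second allele's fraction of them. The authors deposited that fraction, and shares recomputed from the counts were used here. The submitters' processing notes name mm10 and, among others, Bowtie2 2.4.2, SAMtools 1.11 and featureCounts. How alleles were assigned, whether duplicates were removed and which strain is first were not stated in the labels or notes. The deposited length was within 10% of the RefSeq gene span for 13233 of 16734 matched members, and over 2-fold longer for 1116.

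Levels are reads of both alleles in RPM, for each 1000000 reads of chromosomes 1-19. Members have 20 or more reads in the pair, and a 2-fold difference is a log2 ratio of 1 or more in size with a pseudocount of 1. With 1 library a side there is no test. Intervals are exact (Poisson for levels, Clopper-Pearson for shares and, through the conditional binomial, for ratios) at 95% and cover counting error only. PCR copies are not independent molecules. Genes were named by rule: the 8 highest levels and levels per kb in each library, 12 genes at each end of the ratio, and per list the 2 with the most reads and the extremes of the ratio. The members and lists were chosen with earlier results of these data known. Genes given 2 positions (5) or on X and Y were left out. The planned comparison by promoter content is void and not reported, since under 80% of members had a window. Values were computed in Python 3.11.15 with pandas 2.3.3 and scipy 1.17.1. Trimmed-mean scaling factors came from edgeR 4.0.16, used for no test. The ratio was tested on simulated data with known changes. The alternatives tried were other scalings, pseudocounts, read minimums and folds, each allele alone, thinning, and leaving out gene classes.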

Additional observations from a re-analysis of the deposited data

Results flagged for a closer look

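The E13.5 library of females held 35 reads assigned to genes of the Y chromosome, which no comparison above uses, beside 2 in the E12.5 library of females. For each 1000000 autosomal reads this is 6.13 (4.27 to 8.53) at E13.5 and 1.32 (0.160 to 4.77) at E12.5, and the male E11.5 library had 9 reads, or 6.63 (3.03 to 12.6). The E13.5 reads lay mainly in genes that have relatives on the X chromosome, with 10 in Uty, 8 in Usp9y, 6 in Zfy1 and 5 in Kdm5d. The H3K27me3 libraries of females had 5 and 4 such reads. X-linked reads for each 100 autosomal reads stood at 2.04 times the male rate in the E13.5 library and 1.40 times in the E12.5 one. The female E13.5 and male levels of Y reads lay within each other's counting intervals. The part of these reads in the autosomal results was not tested.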

How the results depend on the processing

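All values rest on 1 library a stage, so leaving out a replicate was not possible. No paired analysis was possible because each stage has a single library. The difference between long and short genes (0.65 in median log2 ratio, over 300 kb against 2-10 kb) kept its sign under the 13 alternatives that give it, with 0.71 without a pseudocount, 0.55 with one of 5, 0.74 and 0.98 at minimums of 50 and 100 reads, 0.60 on the first allele, 0.81 without multicopy families and 0.78 where the deposited length is within 10% of RefSeq. The densest quintile of genes less the sparsest (-0.63) kept its sign under 15, with -0.68 without a pseudocount, -0.50 with one of 5, -0.69 and -0.67 at minimums of 100 and 200 reads, -0.58 on each allele alone, -0.72 without multicopy families and also with RefSeq lengths, -0.56 without the longest and shortest 5% of genes and -0.56 for genes of 10 to 100 kb. The scalings among these alternatives shift all ratios nearly alike, so they could hardly change either difference. The density comparison, the RefSeq length filter and the windows were chosen after seeing the data.

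Vomeronasal receptors (0.80) gave 0.57 with a pseudocount of 5, 0.91 by trimmed-mean and 0.92 by median scaling. Olfactory receptors (0.63) gave 0.75, 0.39, 0.53, 0.48, 0.74, 0.75, 0.56, 0.71 and 0.54 without a pseudocount, with one of 5, at 50 and 100 reads, by both scalings, with E13.5 thinned, on the first allele and with RefSeq lengths. Developmental regulators (-0.45) gave -0.35 with a pseudocount of 5, -0.39 and -0.22 at 100 and 200 reads, -0.34 and -0.33 by the scalings and -0.39 from pooled reads. Meiotic entry genes (0.28, order-statistic interval of the median -0.10 to 0.61) ran from 0.22 with RefSeq lengths to 0.42 at 100 and 0.45 at 200 reads. Housekeeping genes changed sign, with 0.038 at 50 and at 100 reads, 0.084 by both scalings and 0.045 on the second allele, so no direction is given for them.

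The median of all members (-0.12) was -0.10 with a pseudocount of 5, -0.11, -0.078 and -0.027 at 50, 100 and 200 reads, 0.00073 by trimmed-mean and 0 by median scaling, -0.13 with X-linked reads in the total, -0.093 on the first allele, -0.16 without multicopy families and -0.14 with RefSeq lengths. Counts past 2-fold depend on the settings most. The 624 higher genes became 148 with a pseudocount of 5, 354, 208 and 113 at 50, 100 and 200 reads, 1015 and 1026 on the first and second allele, 327 without multicopy families, 318 with RefSeq lengths, 2128 at a fold of 1.5 and 119 at 3. The 942 lower genes became 247, then 584, 320 and 114 at those minimums, 562 and 558 by the scalings, and 3660 and 62 at those folds. Of the named genes past 2-fold, 1 value of 684 changed sign, that of Shh on the first allele (0.50). The planned comparison by promoter CpG content was void, with windows for 79.1% of members. At E12.5 a level under 1.98 RPM is below 3 reads.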

Other observations

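Some members held reads of nearly 1 allele alone, in both libraries alike. Of 11931 genes with 20 or more reads at E12.5, 154 had 90% or more of them on the second allele and 2 had 10% or less. At E13.5 the numbers were 245 and 7 of 16110, and 141 genes were at 90% or more in both. Auts2, a large neurodevelopmental gene of chromosome 5, had 9 reads on the first allele and 1004 on the second at E12.5, a second-allele share of 99.1% (98.3 to 99.6), and 98.7% at E13.5. Skint5 of chromosome 4 had 98.6% and 99.5%, and Rims1 of chromosome 1, a gene of synaptic vesicle release, had 99.3% and 99.2%. Some such genes lay close together. Gpr176, Eif2ak4, Ino80, Stard9 and Ubr1 lie between positions 118277096 and 120970760 of chromosome 2, with second-allele shares of 91.4% to 98.6% at E12.5. Skint6, at 100% and 99.2%, lies near Skint5 on chromosome 4. All these genes were named for their shares after the values had been seen. For such genes the agreement of both alleles on a stage ratio cannot be read.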
